A study of Mus musculus with 12 samples.

Results

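The replication-dependent histone genes were taken as the protein-coding genes of the GENCODE M21 annotation whose symbol starts with Hist1h, Hist2h, Hist3h or Hist4h. They numbered 67 of 21951 protein-coding genes. The Hist1 cluster on chromosome 13 held 54 of them, the Hist2 cluster on chromosome 3 held 10, the Hist3 cluster on chromosome 11 held 2 (Hist3h2a and Hist3h2ba), and Hist4h4 stood alone on chromosome 6. By product, 6 encoded the linker histone H1, 18 encoded H2A, 18 encoded H2B, 12 encoded H3 and 13 encoded H4. A promoter was called in a library when the authors' peak list of that library held at least 1 peak with its summit within 3000 bp of a transcript start of the gene. Its level was the highest fold enrichment among those peaks, which is the caller's ratio of the tag pileup at the summit to the local background.

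These genes make the core and linker histones that package DNA as it is copied. They are transcribed mainly in S phase, at nuclear sites called histone locus bodies where the coactivator NPAT and the processing factor FLASH gather. Their transcripts as a rule lack introns and end in a stem-loop bound by SLBP in place of a poly(A) tail.

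ATAC-seq, in which a transposase inserts adapters into accessible DNA, had been performed on primary skeletal muscle fibroblasts from the lower abdominal muscle of Aromhum mice, male FVB/N mice with a BAC transgene of human aromatase, the enzyme that converts androgen to estrogen. The cells were preplated primary cultures kept about 16 hours in serum-free medium, and all received a pretreatment of 3 hours and then 1 hour of a second agent. Vehicle cells received DMSO and then ethanol, E2 cells received DMSO and then 10 nM estradiol (E2), E2 plus fulvestrant cells received 100 nM of the estrogen receptor antagonist fulvestrant and then 10 nM E2, and fulvestrant cells received 100 nM fulvestrant and then ethanol. Each of the 4 treatments had 3 libraries, numbered 1 to 3. The labels did not say whether these came from separate animals or cultures, so the tests measured only the spread between these libraries.

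The lists differed in ways that touch every value below. They held 30062 to 110724 peaks, of which 7.35% to 46.4% had a q-value of 0.05 or less. The genome-wide background recovered from the peaks, a measure of relative depth, ran from 0.713 to 1.419 tags per window and was lowest in vehicle replicate 1. The 4 libraries of replicate number 1 held 22 to 36 peaks on chromosome Y, against 854 to 1148 in the other 8. The study states that its mice were male, and the reason for the low counts in number 1 was not tested. Of 12 fibroblast marker genes, among them Pdgfra, Col1a1, Dcn and Esr1, between 2 and 11 (16.7% to 91.7%) had a called promoter in a library. The share over all protein-coding genes was 17.3% to 62.8%. Single fibroblast markers ran from 3 libraries at Lum to 10 at Vim and Fn1, and the adipocyte marker Plin1 was also called in 10. Of 7 muscle cell markers 0% to 57.1% were called. Immune, epithelial and adipocyte markers (6, 4 and 4 genes) were called at 0% to 50% each. Part of the promoters of endothelial markers was called as well, at 0% to 100% of 5 genes in a library. The part that these library differences played in the histone values was not tested.

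The sequences between or before the starts of the members with the highest and lowest levels are printed here to show what was searched at the extremes of the range, and no result depends on them. All are from the assembly GRCm38, the sequence of mm10, bounded by RefSeq starts where a member was matched and by GENCODE starts otherwise. Capitals mark the CCAAT box (CCAAT), the TATA box (TATAAA), the octamer (ATTTGCAT), the H1 box (AAACACA) and the core of H4 site II (GGTCCG), each on either strand. The first is the 239 bases between the starts of Hist1h2ac and Hist1h2bc (chr13:23683960-23684198, plus strand), the divergent promoter with the highest level. The second is the 280 bases between the starts of the germ cell genes Hist1h2ba and Hist1h2aa (chr13:23934157-23934436, plus strand), a divergent promoter with a level near the bottom.
Hist1h2ac-Hist1h2bc: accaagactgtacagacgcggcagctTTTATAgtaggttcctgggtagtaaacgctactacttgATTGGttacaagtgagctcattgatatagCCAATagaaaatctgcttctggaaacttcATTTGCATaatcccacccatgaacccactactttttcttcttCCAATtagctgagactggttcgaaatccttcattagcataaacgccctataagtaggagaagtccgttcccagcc
Hist1h2ba-Hist1h2aa: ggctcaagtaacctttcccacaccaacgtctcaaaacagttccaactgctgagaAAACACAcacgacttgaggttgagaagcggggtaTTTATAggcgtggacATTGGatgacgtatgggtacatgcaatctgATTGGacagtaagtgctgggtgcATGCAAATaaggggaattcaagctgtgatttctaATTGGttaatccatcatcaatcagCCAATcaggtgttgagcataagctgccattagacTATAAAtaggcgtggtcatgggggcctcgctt
The next 2 are 150 bases each at H4 genes, the member called in the most libraries, Hist4h4 (chr6:136804432-136804581, minus strand), and the member called in none, Hist1h4b (chr13:23756807-23756956, plus strand, with the last 20 bases past the RefSeq start). The last is the 150 bases before the start of the linker histone gene Hist1h1c (chr13:23738657-23738806, plus strand), which holds an H1 box.
Hist4h4: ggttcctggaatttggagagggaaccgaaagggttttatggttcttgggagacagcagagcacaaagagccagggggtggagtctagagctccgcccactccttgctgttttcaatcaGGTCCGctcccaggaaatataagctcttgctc
Hist1h4b: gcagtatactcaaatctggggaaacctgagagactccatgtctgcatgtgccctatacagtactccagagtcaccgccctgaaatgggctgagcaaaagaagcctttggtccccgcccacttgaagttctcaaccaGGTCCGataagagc
Hist1h1c: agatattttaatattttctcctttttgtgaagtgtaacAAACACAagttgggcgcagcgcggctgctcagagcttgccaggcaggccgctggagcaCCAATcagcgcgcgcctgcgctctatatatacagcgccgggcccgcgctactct

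Histone promoters were mostly called in some libraries and mostly unlisted in others, and their share varied more between libraries of a treatment than between treatment means. In vehicle, 88.1%, 20.9% and 91.0% of the 67 promoters were called in replicates 1, 2 and 3. In E2 the shares were 88.1%, 11.9% and 4.48%. In E2 plus fulvestrant they were 92.5%, 2.99% and 38.8%, and in fulvestrant alone 91.0%, 31.3% and 20.9%. All 4 libraries of replicate number 1 and vehicle replicate 3 lay above the other 7, and each treatment held libraries on both sides of that gap.

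Over all protein-coding genes the share called ran within narrower limits, from 17.3% to 62.8%. In replicate number 1 it was 57.6% in vehicle, 62.6% in E2, 60.3% in E2 plus fulvestrant and 62.8% in fulvestrant, and in vehicle replicate 3 it was 53.8%. The histone share exceeded it by 25.5 to 37.3 points in those libraries. In vehicle replicate 2, E2 replicates 2 and 3, and E2 plus fulvestrant replicate 2, the histone share minus that of all genes was -23.4 to -12.8 points. In the remaining 3 libraries it was higher, by 16.5 points in E2 plus fulvestrant replicate 3, by 1.7 points in fulvestrant replicate 2 and by 1.3 points in fulvestrant replicate 3.

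The excess in those libraries was also present among genes with windows of equal width, while the deficits were smaller. Since 63 of the 67 histone genes have a single annotated start, their windows were narrower (median 6001 bp) than those of all protein-coding genes (median 8812 bp). Among genes with 1 start, a comparison added after the data had been seen, the share called in replicate number 1 was 87.3% to 92.1% for histone genes and 34.0% to 38.0% for all 4895 such genes. In vehicle replicate 2, E2 replicates 2 and 3, and E2 plus fulvestrant replicate 2 it was 20.6%, 12.7%, 4.76% and 3.17% for histone genes, against 28.4%, 15.6%, 9.72% and 11.1%. In fulvestrant replicate 2 it was 31.7% against 15.9%, so the position of the low libraries depended on the genes they were compared with. Genes with 1 start also had a shorter median span, 5350 bp against 17400 bp over all protein-coding genes. Window width and kind of gene could not be told apart here. With the summit required within 500 bp, vehicle replicates 1, 2 and 3 had 68.7%, 11.9% and 77.6% of histone promoters called against 42.5%, 14.7% and 44.4% of all promoters. With q-values limited to 0.05, E2 replicates 2 and 3 and E2 plus fulvestrant replicate 2 had no histone promoter called, and 1.92%, 1.33% and 1.29% of all promoters. An unlisted promoter was not shown to be closed.

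**Figure D1:**
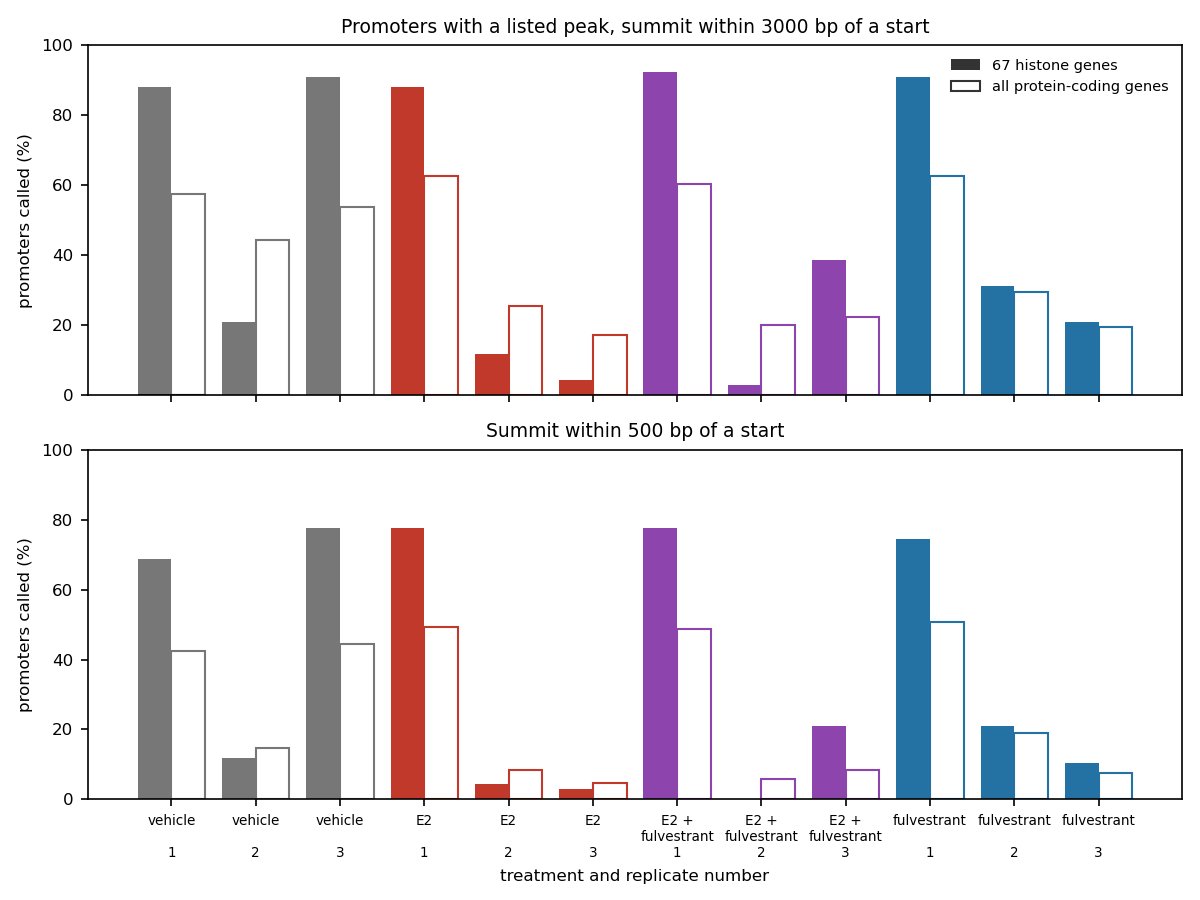
Percent of promoters called in each of the 12 libraries for the 67 histone genes (filled bars) and all protein-coding genes (open bars), with the summit within 3000 bp (top) or 500 bp (bottom) of a start. The filled bars reach 88.1% to 92.5% in the 4 libraries of replicate number 1 and 91.0% in vehicle replicate 3, and 2.99% to 38.8% in the others.

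Genes of other clusters and families gave a scale for these shares. Promoters of 81 ribosomal protein genes, which are active in all growing cells, were called at 88.9% to 95.1% in replicate number 1 and at 11.1% to 91.4% in the other libraries. Promoters of 53 keratin genes, which are clustered and mostly epithelial, were called at 24.5% to 39.6% and 11.3% to 35.8%. Inside the histone clusters lie 49 other protein-coding genes, of which 36 encode vomeronasal receptors. In replicate number 1 these 49 were called at 18.4% to 26.5%, against 88.1% to 92.5% for the histone genes. The 13 that are not vomeronasal receptor genes were called there at 38.5% to 46.2%. In the other libraries the 49 were called at 4.08% to 28.6%, against 2.99% to 91.0% for the histone genes, so the ranges overlapped. None of these classes was tested against the histone genes.

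Most histone genes were called in 5 to 7 libraries (49 of the 67), and the share of all genes in that range is not given here. The median was 6 of 12, against 5 over all protein-coding genes. In 5 or more libraries, 58 of 67 histone promoters were called, and 12148 of the 21951 promoters of all genes. Neighbouring histone genes often share a peak, so these are not separate observations. No histone promoter was called in all 12, and 178 of the 21951 promoters of all genes were. That share is too small to set 0 of 67 apart. In all 4 libraries of replicate number 1, 55 of 67 histone promoters (82.1%) were called, against 42.6% of all promoters. At the top stood Hist4h4 with 10 libraries and the pair Hist1h2ac and Hist1h2bc with 9, and at the bottom Hist1h4b with 0, Hist3h2ba with 1, and Hist1h4k, Hist1h2aa and Hist1h2ba with 2 each.

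The 5 histone types had close median levels, while fewer H4 promoters were called in replicate number 1. There 69.2% to 84.6% of H4 promoters were called, against 100% of H1, 88.9% to 94.4% of H2A and of H2B, and 91.7% to 100% of H3. In vehicle replicate 3, the promoters called were 6 of 6 for H1, 17 of 18 for H2A, 16 of 18 for H2B, 11 of 12 for H3 and 11 of 13 for H4. In E2 replicate 3 they were 0, 1, 1, 1 and 0 in the same order, all from 1 peak. The shares called over all protein-coding genes in these libraries were 53.8% and 17.3%. The median level, as the mean over 12 libraries of log2 fold enrichment with an unlisted promoter at 0, was 1.07 for H1, 1.14 for H2A, 1.20 for H2B, 1.18 for H3 and 1.18 for H4. Over all protein-coding genes it was 0.80.

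Calls by cluster were counted without a test. All 10 Hist2 promoters were called in the 4 libraries of replicate number 1 and in vehicle replicate 3, and 0 in vehicle replicate 2, E2 replicates 2 and 3, and E2 plus fulvestrant replicate 2. In those last 4 libraries the 54 Hist1 promoters were called 13, 7, 3 and 1 times. All histone calls there came from 9, 4, 1 and 2 distinct peaks, too few to tell the clusters apart. The shares over all protein-coding genes were 44.3%, 25.5%, 17.3% and 20.2%. In E2 plus fulvestrant replicate 3 the Hist2 promoters were called in 6 of 10 and the Hist1 promoters in 18 of 54. The Hist1 cluster falls into 4 blocks of 18, 5, 29 and 2 genes, with median levels of 1.26, 1.33, 1.11 and 0.30. The last block holds the germ cell genes Hist1h2aa and Hist1h2ba.

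**Figure D2:**
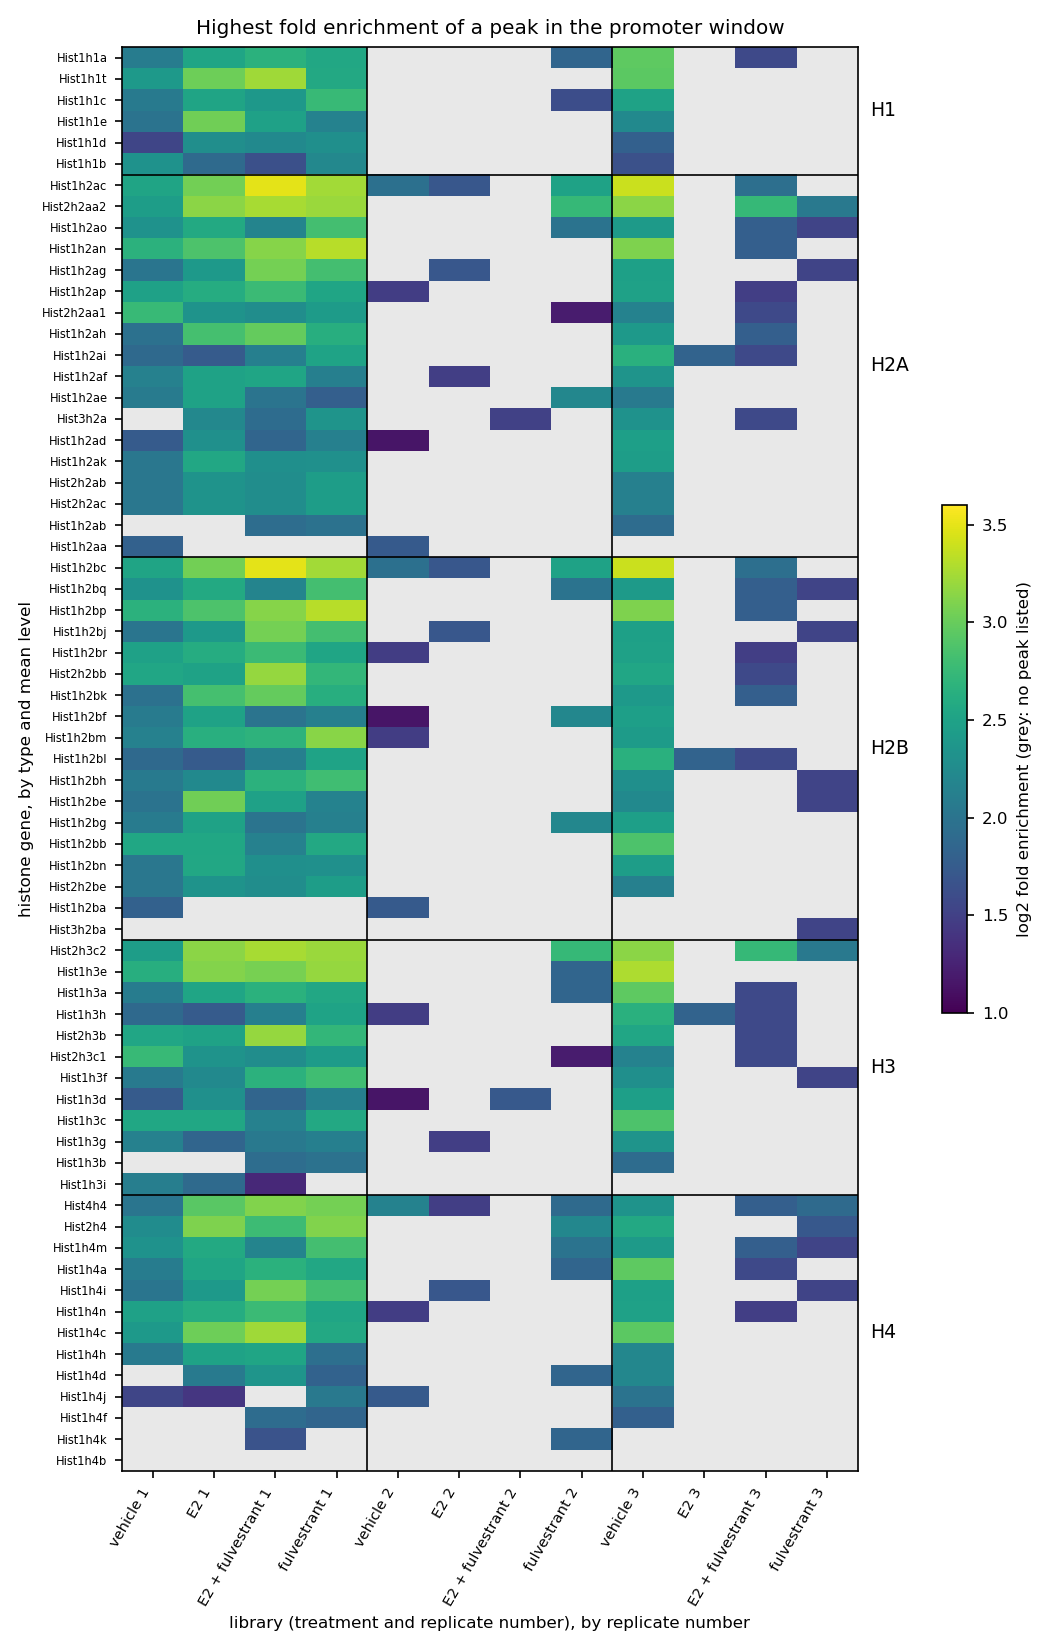
Highest fold enrichment (log2, colour) of a peak in the promoter window of each histone gene (rows, by type and mean level) in each library (columns, by replicate number), with grey where no peak was listed. The 4 columns of replicate number 1 and vehicle replicate 3 are mostly filled, and the row of Hist1h4b is empty.

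Where a histone promoter was called, its enrichment was near that of other promoters. Median fold enrichment in vehicle replicates 1, 2 and 3 was 4.26, 2.78 and 5.52 at histone promoters and 4.02, 3.30 and 5.61 at all called promoters. In E2 it was 5.73, 3.27 and 3.54 at histone promoters against 4.88, 3.18 and 3.18. In E2 plus fulvestrant it was 5.41, 3.08 and 2.97 against 5.22, 3.15 and 3.21, and in fulvestrant 5.79, 3.96 and 2.89 against 5.42, 3.59 and 3.28. The histone medians in E2 replicates 2 and 3 and in E2 plus fulvestrant replicate 2 rest on only 4, 1 and 2 distinct peaks. The highest histone value was 11.3, at Hist1h2ac and Hist1h2bc in E2 plus fulvestrant replicate 1.

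H2A and H2B form the outer dimers of the nucleosome, and their genes are often paired head to head. There were 13 divergent pairs with starts 176 to 660 bp apart (median 268 bp), 12 of H2A with H2B and 1 of H2B with H3 (Hist1h2bh with Hist1h3f). Paired genes share peaks, so their levels are not independent measurements. The 26 paired genes had a median level of 1.20 and the 41 unpaired genes 1.12, and both were called in a median of 6 libraries.

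The pair with the highest level was Hist1h2ac and Hist1h2bc, whose starts are 251 bp apart and whose shared sequence is printed above with its octamer and 3 CCAAT boxes. Its fold enrichment was 5.73, 3.89 and 10.5 in vehicle replicates 1 to 3 and 8.29 and 3.27 in E2 replicates 1 and 2, with no peak in E2 replicate 3. In E2 plus fulvestrant it was 11.3 and 3.85 in replicates 1 and 3 with no peak in replicate 2, and in fulvestrant 9.43 and 5.64 in replicates 1 and 2 with no peak in replicate 3. The 4 treatments overlapped throughout their ranges. The germ cell pair Hist1h2ba and Hist1h2aa, known from testis, has the same kinds of motif in its printed sequence, yet was called in vehicle replicates 1 and 2, at 3.50 and 3.34, and in no other library. The germ cell linker gene Hist1h1t was called in 5 libraries, at 5.26 and 7.69 in vehicle replicates 1 and 3, 8.16 in E2 replicate 1, 9.35 in E2 plus fulvestrant replicate 1 and 5.93 in fulvestrant replicate 1, but in none with the summit within 500 bp of its start. Its peak also lay in the window of Hist1h4c, which had the same values. Other pairs at the top of their types were Hist1h2ao with Hist1h2bq (8 libraries, level 1.47) and Hist1h2an with Hist1h2bp (6 libraries, level 1.41).

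Hist4h4 was the member called most often. Its fold enrichment was 4.04, 4.45 and 5.04 in vehicle, 7.65 and 2.80 in E2 replicates 1 and 2, 8.64 and 3.46 in E2 plus fulvestrant replicates 1 and 3, and 8.33, 3.74 and 3.72 in fulvestrant, with no peak in E2 replicate 3 and E2 plus fulvestrant replicate 2. All 10 of its calls had a summit within 500 bp of the start, and 6 had a q-value of 0.05 or less. The other H4 genes at the top were Hist2h4 (7 libraries, level 1.48) and Hist1h4m (8 libraries, level 1.47). Hist1h4m was the nearest histone start to a peak in 3 of its 8 libraries, with the summit within 500 bp in 1, and in all 8 its level equalled that of the neighbouring pair Hist1h2ao and Hist1h2bq, whose windows hold the same highest peak. At the bottom were Hist1h4k, called in E2 plus fulvestrant replicate 1 at 3.18 and fulvestrant replicate 2 at 3.59, and Hist1h4b.

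Among H3 genes, Hist2h3c2 had a level of 1.89 from a peak that lies nearer to the start of Hist2h2aa2. The values of that peak were 5.44 and 8.85 in vehicle replicates 1 and 3, 8.84 in E2 replicate 1, 9.57 and 6.67 in E2 plus fulvestrant replicates 1 and 3, and 9.24, 6.70 and 4.13 in fulvestrant. Fulvestrant was the treatment with a peak there in every library, and its values overlapped those of the others. The peaks nearest to Hist2h3c2 itself were lower, at 3.74 and 3.72 in vehicle replicates 1 and 3, 4.29 in E2 replicate 1 and 4.65 in E2 plus fulvestrant replicate 1, so its rank rests on its neighbour's peak. Hist1h3e followed at 1.43 and Hist1h3a at 1.35, the latter sharing its peaks with Hist1h4a and Hist1h1a. Hist1h3b (level 0.49) and Hist1h3i (0.44) were lowest, called in 3 libraries each. Hist1h3b shared its peak with the lowest H2A gene outside the germ cell pair, Hist1h2ab.

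Among the linker genes, Hist1h1a had a level of 1.35, Hist1h1c 1.15, Hist1h1d 0.85 and Hist1h1b 0.81. The level of Hist1h1a came from peaks nearer to Hist1h3a or Hist1h4a. It was itself the nearest start in 2 of its 7 libraries, at 2.92 in vehicle replicate 1 and 3.06 in E2 replicate 1. Hist1h1c had values of 4.21, 5.65, 5.73, 5.21, 6.76 and 3.06 in vehicle replicates 1 and 3, E2 replicate 1, E2 plus fulvestrant replicate 1, and fulvestrant replicates 1 and 2. A peak within 500 bp of its start was listed in all 6, but the 5.65 and the 6.76 belong to a second peak 1022 and 904 bp downstream, beside 4.92 and 5.63 at the start. Hist1h1d and Hist1h1b had no summit within 500 bp of their annotated starts. For Hist1h1d the RefSeq start lies 1770 bp inside the GENCODE start.

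In the Hist3 cluster, Hist3h2a was called in 6 libraries, at 5.0 in vehicle replicate 3, 4.65 in E2 replicate 1, 3.78, 2.84 and 2.97 in E2 plus fulvestrant, and 5.08 in fulvestrant replicate 1. Hist3h2ba was called in fulvestrant replicate 3, at 2.89, and nowhere else.

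Peaks at these compact genes (median span 539 bp) sat close to the start. In the 4 libraries of replicate number 1, 44 to 49 distinct peaks accounted for the 59 to 62 promoters called, and 70.8% to 79.5% of these peaks lay in the window of more than 1 histone gene. The median distance from summit to the nearest histone start was 169 bp in vehicle replicate 1, 95.5 bp in E2 replicate 1, 112 bp in E2 plus fulvestrant replicate 1, 99 bp in fulvestrant replicate 1 and 113 bp in vehicle replicate 3. Over all protein-coding promoters it was 264, 203, 161, 177 and 133 bp. In E2 plus fulvestrant replicate 2, the 2 peaks found had a median distance of 1450 bp. In E2 replicate 3 a single peak, at Hist1h2ai, Hist1h2bl and Hist1h3h with a fold enrichment of 3.54, accounted for all 3 calls.

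**Figure D3:**
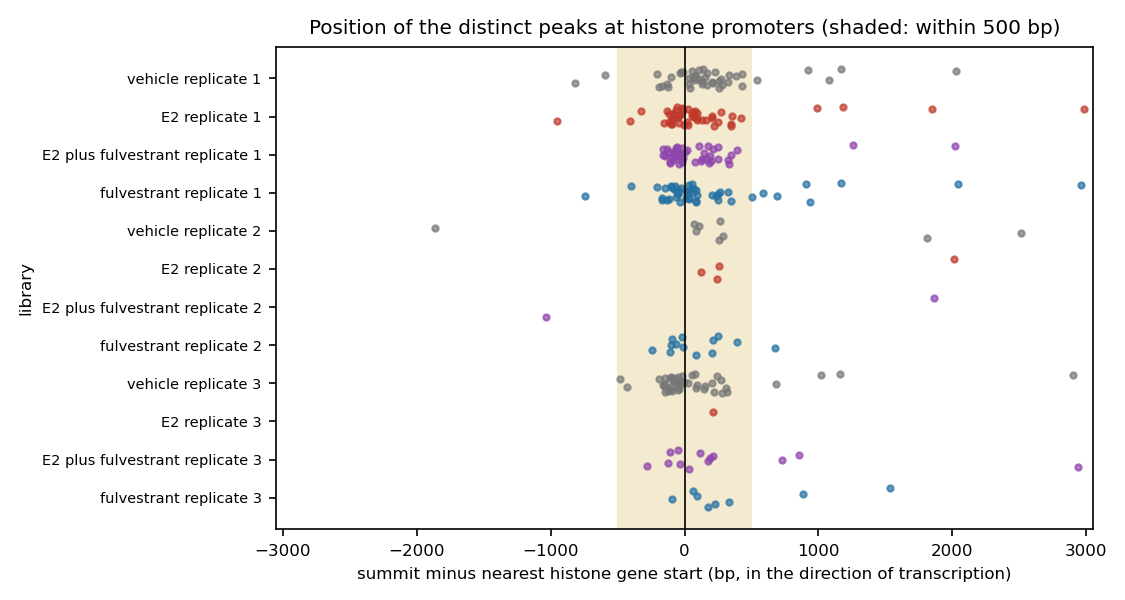
Distance from the summit of each distinct peak to the nearest histone gene start (bp, positive in the direction of transcription) in each library, with the band of 500 bp on each side shaded. In replicate number 1, 81.6% to 95.6% of the points lie in the band.

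The question of whether E2 or fulvestrant changed these promoters within 1 hour was addressed in each comparison with limma on the quantile-normalized log2 fold enrichment of 15503 promoters called in at least 3 libraries, 62 of them histone promoters. An unlisted promoter entered with a fold enrichment of 1, the value of no enrichment. For E2 against E2 plus fulvestrant, the comparison the study centres on, no histone promoter passed an adjusted p of 0.05 (limma, Benjamini-Hochberg), and neither did any other promoter (percent called 0). At an unadjusted p under 0.05 there were 0 of 62 histone promoters and 232 of 15503 in all. The median difference was -0.04 at histone promoters and 0.00 at all promoters, with 29 histone promoters above 0 and 33 below. The median standard error of a histone promoter was 0.52 on the log2 scale, so differences of the size seen here, from -0.88 to 0.42, were not separable from the spread.

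The largest negative differences were at Hist3h2a (-0.88 with an SE of 0.48) and at Hist2h2aa2 and Hist2h3c2 with their shared peak (-0.87, SE 0.74), and the largest positive at Hist1h2af (0.42, SE 0.46) and Hist1h3g (0.36, SE 0.45). All had an adjusted p of 1 (limma, Benjamini-Hochberg). At Hist3h2a, the 3 E2 plus fulvestrant libraries and 1 E2 library had a peak, and the difference turned to 0.05 with the summit within 1000 bp and to 0.10 with q-values limited to 0.05. At Hist1h3g it turned to -0.04 without E2 replicate 2 and to -0.01 with q-values limited to 0.05.

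Against vehicle the result was the same in number. By limma with Benjamini-Hochberg adjustment, 0 of 62 histone promoters and 0 of 15503 promoters (percent called 0) passed for E2, for fulvestrant, for E2 plus fulvestrant and for the interaction of E2 with fulvestrant. At an unadjusted p under 0.05 there were 0, 0, 1 and 0 histone promoters and 486, 223, 445 and 203 promoters in all. The 1 histone promoter was Hist3h2a, higher by 1.23 (SE 0.48) in E2 plus fulvestrant than in vehicle with an adjusted p of 0.998 (limma). Median differences from vehicle at histone promoters were -0.07 in E2, -0.04 in fulvestrant and 0.07 in E2 plus fulvestrant, beside 0.03, 0.06 and 0.04 at all promoters. Without normalization between libraries they were -0.71, -0.57 and -0.57, beside -0.58, -0.41 and -0.56 at all promoters, so the direction of the E2 plus fulvestrant median turned with the scaling. These comparisons share the vehicle libraries.

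By presence, no histone promoter was called in all 3 libraries of E2 and none of E2 plus fulvestrant (percent called over all genes 0.26) or the reverse (0.228). Against vehicle, 0 histone promoters were called in all E2 and no vehicle libraries (0.15) and 0 in the reverse (0.574). For fulvestrant the counts were 0 (0.0592) and 0 (0.579), and for E2 plus fulvestrant 0 (0.15) and 1 (0.679). That one was the H4 gene Hist1h4j, at 2.92, 3.34 and 3.97 in vehicle with no peak in E2 plus fulvestrant. Its limma difference was -0.76 with an SE of 0.41 and an adjusted p of 0.998 (Benjamini-Hochberg).

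The shares themselves gave no separation of treatments beyond the spread. The mean share of histone promoters called was 66.7% ± 39.7 in vehicle, 34.8% ± 46.3 in E2, 44.8% ± 45.1 in E2 plus fulvestrant and 47.8% ± 37.8 in fulvestrant (SD, n = 3 each). E2 minus E2 plus fulvestrant was -10.0 points, made of -4.5, 9.0 and -34.3 points in replicate numbers 1, 2 and 3. E2 minus vehicle was -31.8 points, made of 0.0, -9.0 and -86.6. Fulvestrant minus vehicle was -18.9 points (3.0, 10.4 and -70.1) and E2 plus fulvestrant minus vehicle -21.9 points (4.5, -17.9 and -52.2). The difference from vehicle thus lay mostly in replicate number 3, where vehicle had 91.0%. Without vehicle replicate 3 these differences were -19.7, -6.7 and -9.7 points.

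**Figure D4:**
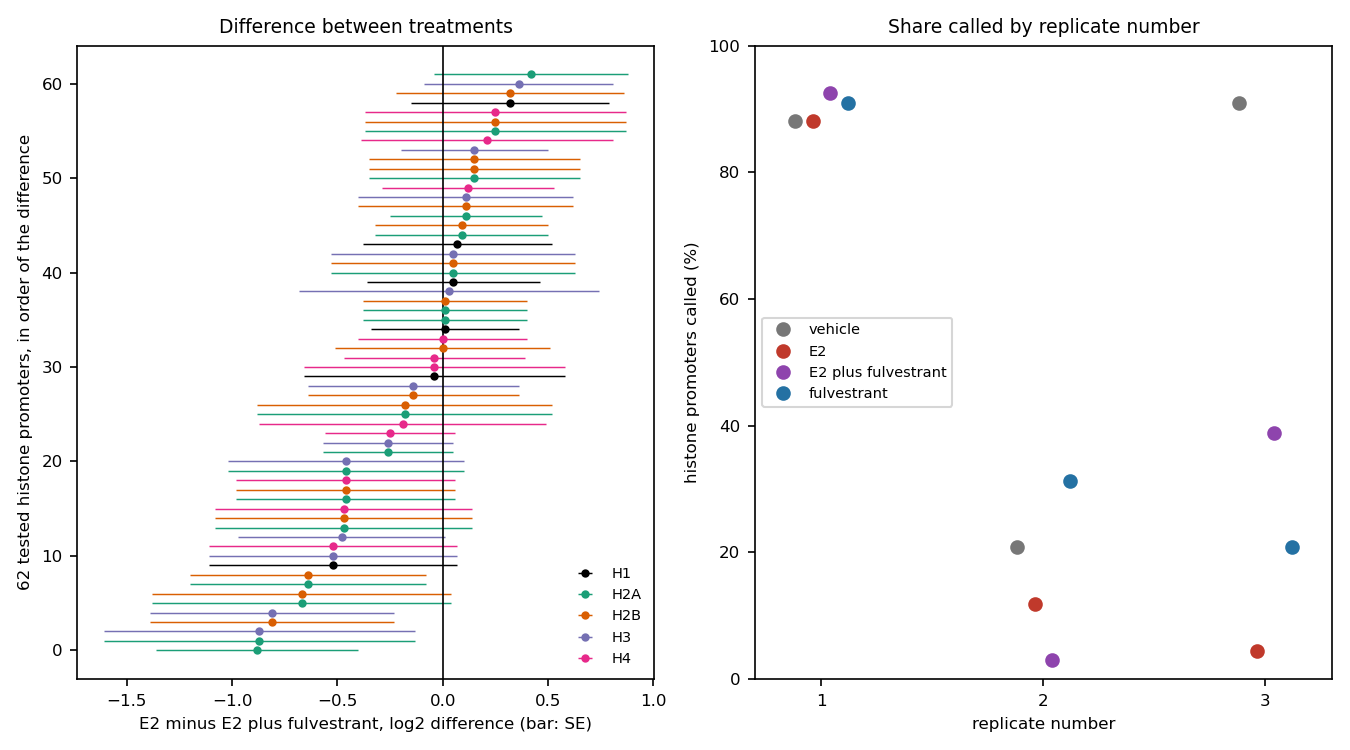
Left, the E2 minus E2 plus fulvestrant difference in log2 fold enrichment at the 62 tested histone promoters, coloured by type, with the SE as bars. Right, the share of the 67 histone promoters called in each library by replicate number, with points of a number set apart sideways. The differences run from -0.88 to 0.42, and the shares lie together at 88.1% to 92.5% in replicate number 1 and spread in the others.

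The promoter sequences of 62 of the 67 members were found in the RefSeq table, as 250 bases before and 50 after the start. The CCAAT box was in all 6 H1, 18 H2A, 16 H2B and 10 H3 promoters and in 3 of 12 H4 promoters, and in 37.4% of all 32851 promoters. The TATA box was in 35 of 62 (56.5%) against 13.6% of all. The octamer was in 7 of 18 H2A and 6 of 16 H2B promoters and in none of the other types, against 1.74% of all. The H1 box was in 5 of 6 H1 promoters (7.18% of all), and the core of H4 site II, the element bound by HINFP, in 11 of 12 H4 promoters (8.25% of all). An E2F site (TTTCGCGC) was in 5 H2A and 4 H2B promoters, against 0.323% of all. The windows of divergent pairs overlap, as at Hist1h2an and Hist1h2bp, so the same site can be counted for both genes. Motif counts of H2A and H2B are therefore not independent. The palindromic estrogen response element, searched by its consensus, was in 0 of 62 and in 0.07% of all, which says only that these letters are not in this window.

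Calls are set beside motif content as a description. Promoters with and without the octamer were called in a median of 6 libraries each, and so were those with and without the E2F site. With the TATA box the median was 5 and without it 6, and with the CCAAT box it was 6 and without it 5. Hist1h4b, called in no library, holds the H4 site II core as Hist4h4 does, which the printed sequences show. GC content had a median of 45.3% at histone promoters and 52.7% at all promoters, while the CpG count was higher, at 11 against 7.

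**Figure D5:**
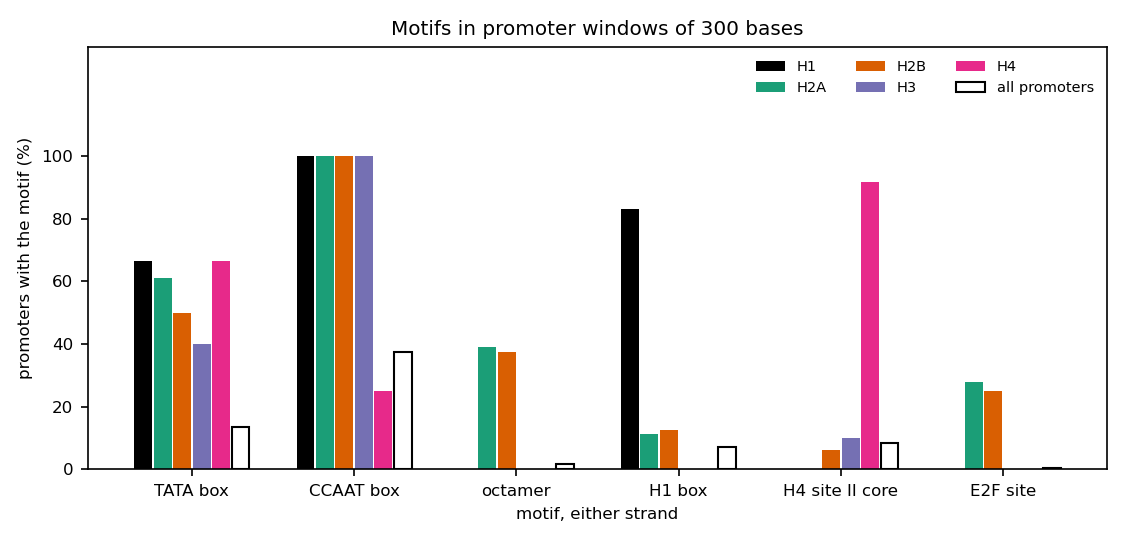
Percent of promoters holding each motif on either strand in windows of 300 bases, for the 62 matched histone promoters by type (coloured bars) and for all RefSeq promoters (open bars). The H1 box is in 5 of 6 H1 promoters and the H4 site II core in 11 of 12 H4 promoters, and the octamer and E2F site appear at H2A and H2B.

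The stem-loop at the transcript end was searched by its consensus on the sense strand and was found in 61 of 67 genes within the gene or the 100 bases past its end. The commonest form, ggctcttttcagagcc, was in 41 genes, followed by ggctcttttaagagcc in 9 and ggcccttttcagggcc in 8. In the last 200 bases and the next 100 it was in 39 histone genes (58.2%) and in 0 of 21871 other protein-coding genes. In 16 histone genes the annotation ran over 500 bases past the loop, among them Hist4h4 (2445 bases), Hist1h2ac (2010 bases) and Hist1h2bc (8246 bases).

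Many members have near-identical copies, so the authors' alignment could place their reads at more than 1 gene. Of the 50-base words within 500 bp of each start, a median of 29.3% occurred again elsewhere in the assembly. At 8 members, including Hist1h2ao, Hist1h2bq, Hist1h4m and Hist2h3c2, 90% or more were repeated. These 8 were called in 7 or 8 libraries at levels of 1.23 to 1.89. The 8 members with no repeated word, among them Hist4h4, Hist1h1a and Hist1h1t, were called in 5 to 10 libraries. Across the 67 members, which share libraries and often peaks, the repeated share and the number of libraries called had a Spearman rho of 0.51, given as a description. The study's reads were paired-end and longer than these words, and repeats at the length of the reads were not counted. Which copy the levels at the copied genes belong to is therefore uncertain, to an unknown degree.

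The other genes of the pathway also varied between libraries, as did all protein-coding genes, called at 57.6%, 44.3% and 53.8% in vehicle replicates 1 to 3, 62.6%, 25.5% and 17.3% in E2, 60.3%, 20.2% and 22.3% in E2 plus fulvestrant, and 62.8%, 29.6% and 19.6% in fulvestrant. Of 18 genes of the histone locus body and of histone pre-mRNA processing, 16, 9 and 17 were called in vehicle, 18, 6 and 4 in E2, 18, 5 and 6 in E2 plus fulvestrant, and 18, 9 and 4 in fulvestrant. In E2 replicates 2 and 3 these are 33.3% and 22.2%, near the shares of all genes. Hinfp, which encodes the factor that binds H4 site II, was called in 11 libraries (level 2.43), Slbp, for the stem-loop binding protein, in 10 (2.05) and Npat in 7 (1.93), while the cleavage factor gene Cstf2 was called in 3 (0.60). Of 24 genes of S-phase DNA replication, 22, 13 and 24 were called in vehicle, 23, 5 and 2 in E2, 23, 3 and 11 in E2 plus fulvestrant, and 22, 14 and 5 in fulvestrant. Gins2, a replicative helicase component, had the highest level (2.26, 9 libraries) and the thymidylate synthase gene Tyms the lowest (0.41, 3 libraries). Of 13 replication-independent histone genes, which are expressed outside S phase, 11, 3 and 10 were called in vehicle, 12, 3 and 1 in E2, 10, 3 and 4 in E2 plus fulvestrant, and 10, 5 and 2 in fulvestrant. H3f3b, encoding H3.3, was at 2.33 in 10 libraries and H2afj at 0.42 in 3.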

How the data were processed

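ATAC-seq peak lists of 12 libraries were used, with groups and replicate numbers from the labels. Per the methods and processing notes, the authors trimmed reads with Trimmomatic 0.39, aligned to mm10 with Bowtie2, removed duplicates with Picard 2.21.4 and called peaks with MACS2 2.2.71, and 1 list per library was deposited. The deposited lists give the authors' fold enrichment (a ratio), −log10 p-value and −log10 q-value, and a score in whole numbers. The depth in reads is unknown.

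Promoters were windows of 3000 bp around GENCODE M21 transcript starts. Fold enrichment was taken as log2, with 1 for no peak, and tested with limma 3.58.1 over promoters called in 3 or more libraries. The model for counts used by the study was not run, since the lists hold no counts. Members and lists were chosen with earlier results of these data known. Named members were the 3 highest and 2 lowest per type, the Hist3 and Hist4 genes, the germ cell genes and the extreme E2 minus E2 plus fulvestrant differences. Hist1h4j and the neighbours and copies named beside these were chosen after their values were seen. Scripts were tested on simulated data. Alternatives were other windows, q-values of 0.05 or less, nearest start, other scalings and filters, each library left out, and genes with 1 start.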

Additional observations from a re-analysis of the deposited data

How the results depend on the processing

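None of the 5 limma contrasts gave a histone promoter past the threshold under any alternative run. Over all promoters, counts without 1 library ran from 0 to 10 for E2 minus vehicle (10 without E2 replicate 1) and from 0 to 21 for E2 plus fulvestrant minus vehicle (21 without E2 plus fulvestrant replicate 1). The differences at Hist3h2a (0.05 with 1000 bp, 0.10 with q-values of 0.05 or less) and at Hist1h3g (-0.01 with q-values of 0.05 or less, -0.04 without E2 replicate 2) reversed, the latter reaching 0.62 without E2 replicate 3. The cause was not tested.

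Counts of histone promoters called in all libraries of one treatment and none of the other, either direction, moved with single libraries. Without 1 library they ran from 0 to 1 for E2 against E2 plus fulvestrant, 0 to 8 for E2 against vehicle (8 without E2 replicate 1, 2 without vehicle replicate 3), 0 to 8 for fulvestrant against vehicle (8 without fulvestrant replicate 1, 2 without vehicle replicate 3) and up to 4 for E2 plus fulvestrant against vehicle (4 without E2 plus fulvestrant replicate 1 or vehicle replicate 3). Within replicate numbers 2 and 3 they were 1, 8, 8 and 4. By nearest start, fulvestrant against vehicle gave 1 and E2 plus fulvestrant against vehicle 2, and with q-values of 0.05 or less the latter gave 0. With 2 libraries a treatment the rule is easier to meet for any gene. The shares over all genes under these settings are not given here. Without those shares, these counts cannot say whether histone promoters differ from other promoters.

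The E2 minus E2 plus fulvestrant share ran from -36.6 points without E2 replicate 1 to 13.9 without E2 plus fulvestrant replicate 1, and was 1.5 and 5.2 without E2 replicates 2 and 3. Against vehicle, shares ran from -58.5 to -16.7 for E2, -41.8 to -5.5 for fulvestrant and -45.8 to -1.0 for E2 plus fulvestrant.

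Deviations from group means did not settle whether libraries were paired by replicate number. They correlated at 0.166 to 0.653 in the 6 pairs of number 1, all over 0.1. For number 2 they ran from -0.007 to 0.426 and for number 3 from -0.449 to 0.358, over 0.1 in 3 of 6 pairs each. In the 36 pairs of different numbers they ran from -0.595 to 0.549, with 10 over 0.1. Vehicle replicate 3 correlated with replicate 1 of E2, E2 plus fulvestrant and fulvestrant at 0.534, 0.549 and 0.477. Vehicle replicate 1 correlated with the same libraries at 0.249, 0.225 and 0.166. With a replicate block, 0 histone promoters passed in each contrast. The share difference of E2 minus E2 plus fulvestrant, -10.0 points, cannot change under such a block. Each treatment has 1 library of each number. Peak lists limit all values, since an unlisted promoter may lie just under the caller's cutoff.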
